A study of Mus musculus with 4 samples.

Results

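The genes described here carry the death receptor and necroptosis pathway, and there are 10 of them among the 56748 genes counted: the ligands Fasl and Tnfsf10, the receptors Fas, Tnfrsf10b and Tnfrsf1a, the adaptor Fadd, the protease Casp8, the kinases Ripk1 and Ripk3, and the pore-forming protein gene Mlkl. They were found by gene symbol, and each is a protein-coding gene. The list was chosen from earlier results of the same saline and ADC/cmLumiOpto counts, so the values of its members are a description and no test is given for them. Fas was the member that stood apart, at 2.65 times the saline level after ADC/cmLumiOpto. Its ligand gene Fasl was the least abundant member, at 11 to 38 counts per sample, and the other 8 members had group means within a factor of 0.824 to 1.46 of saline.

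Death receptors are members of the tumor necrosis factor (TNF) receptor family whose cytoplasmic part carries a death domain. When a ligand such as FasL, TRAIL (encoded by Tnfsf10) or TNF binds, the adaptor FADD recruits caspase-8, which cleaves the executioner caspases and starts apoptosis. Caspase-8 also cuts RIPK1 and RIPK3, and where it is blocked these kinases assemble into the necrosome, RIPK3 phosphorylates MLKL, and MLKL permeabilizes the plasma membrane, a lytic form of death called necroptosis. Cytotoxic T cells and natural killer (NK) cells use FasL and TRAIL against tumor cells, and alveolar epithelium, endothelium and leukocytes of the lung also carry Fas.

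Lungs with metastases of 4T1-FLuc, a luciferase-expressing mouse triple-negative breast cancer line, were taken from female BALB/cJ mice that were 7 weeks of age at tail vein injection. The 2 control samples are named saline in the titles and PBS control in the treatment label. The 2 ADC/cmLumiOpto samples carry the treatment label cmLumi-Olap & CD276-DM1 16mg/kg, where CD276-DM1 is an antibody-drug conjugate (ADC) that delivers the microtubule inhibitor mertansine to CD276-bearing cells and cmLumiOpto is a gene therapy that depolarizes cancer cell mitochondria through a light-gated channel. The design text gives 3 weeks of treatment before harvest. The labels give 16 mg/kg of ADC and the study's methods 8 mg/kg, the labels name tumor cells where the methods name dissociated lung tissue, and the agent that Olap stands for is not explained. The methods give 4 samples per group, and 2 per group were analysed here. Nothing in the labels says which mouse gave which sample, so the spread between samples may be partly technical.

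Total counts were 15263375 to 16086720 in saline and 17863980 to 19675436 in ADC/cmLumiOpto, so that 3 counts, used as a floor, equal 0.152 to 0.197 CPM (counts scaled to library size), for counting error only. CPM values here are scaled by the TMM method (trimmed mean of M values, a correction for library composition), with factors of 0.973 to 1.04. Both groups held several tissues. The summed CPM of 8 alveolar and airway markers was 2691 and 423 in saline and 11752 and 7824 in ADC/cmLumiOpto, that of 8 fibroblast and mural markers was 5277 and 3692 against 1856 and 1511, and that of 9 markers of 4T1 and other epithelium was 3159 and 3470 against 3086 and 2984. Of the 9 markers of 4T1 and other epithelium, 4 had positive log2 fold changes (ADC/cmLumiOpto against saline) and 5 negative ones, with a median of -0.051. Krt8 and Krt18 were the largest parts of that sum. Every defining marker of these 3 lists was counted in every sample. In bulk samples, fewer cells of a type and less RNA per cell cannot be told apart.

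Across the 15320 genes that passed the expression filter, all 10 members included, the quasi-likelihood test of edgeR called 0 genes (0.0%) at a Benjamini-Hochberg adjusted p under 0.05, against 3553 genes (23.2%) at an unadjusted p under 0.05. The edgeR exact test called 1170 genes (7.64%) and DESeq2 1353 genes (8.83%). Fas was the 1 member among the called genes of the exact test and of DESeq2, and nothing is read from that count because the list came from this contrast. In CPM, 3 members had both treated samples above both saline samples, as did 28.1% of all tested genes, and 4 had both below, as did 28.8%. The median log2 fold change was 0.056 over the members and 0.028 over all tested genes, and the middle 50% of all tested genes lay between -0.32 and 0.43.

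The promoter sequences of 9 members were found in the RefSeq promoter table of the build GRCm38.p6, whereas Tnfrsf10b had none there. The 250 bases before the start site are printed for Fas, the member with the largest difference, and for Fasl, the gene of its ligand, picked after their values were seen. Coordinates of this paragraph are in GRCm38.p6. Capitals mark matches on either strand to 4 motifs, the interferon-gamma-activated site (TTCNNNGAA), the interferon-stimulated response element (GAAANNGAA), a kappaB site (GGGANTTTC) and the AP-1 site (TGANTCA).
Fas, GRCm38.p6 chr19:34290409-34290658, plus strand: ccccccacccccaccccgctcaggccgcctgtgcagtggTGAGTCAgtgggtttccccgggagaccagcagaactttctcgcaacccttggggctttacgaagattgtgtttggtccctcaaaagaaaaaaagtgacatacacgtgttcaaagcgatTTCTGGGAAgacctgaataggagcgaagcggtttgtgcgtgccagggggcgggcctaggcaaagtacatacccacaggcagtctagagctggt
Fasl, GRCm38.p6 chr1:161788496-161788745, minus strand: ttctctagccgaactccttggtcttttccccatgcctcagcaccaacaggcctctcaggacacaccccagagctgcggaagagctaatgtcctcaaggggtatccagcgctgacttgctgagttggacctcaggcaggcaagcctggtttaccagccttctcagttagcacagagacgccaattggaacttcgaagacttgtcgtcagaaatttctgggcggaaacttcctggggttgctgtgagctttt

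The Fas sequence holds TGAGTCA, an AP-1 match that starts at position -211 from the start site, and TTCTGGGAA, a gamma-activated site match at -93. Fasl holds no match to the 4 motifs, nor do Tnfsf10, Casp8, Fadd and Mlkl. Tnfrsf1a holds 1 gamma-activated site match, TTCCGTGAA at -244, and 1 of the promoters listed for Ripk1 holds this kind and an interferon-stimulated response element match. Ripk3 holds an interferon-stimulated response element match, GAAAGGGAA, at 14, which is after the start site and outside the 250 bases before it. Of the 32851 promoters in the table, 8.30% hold a gamma-activated site match in the 250 bases before and 50 after the start, 8.56% an interferon-stimulated response element, 7.81% an AP-1 match and 1.11% a kappaB match. These shares show how common such letters are, and a match is a description of the sequence only. GC content of the upstream bases was 56.4% for Fas and 53.6% for Fasl, against a median of 52.4% over all promoters.

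Gene positions are those of the deposited table, whose processing notes name the build mm39, and differences are log2 fold changes of ADC/cmLumiOpto against saline ± the standard error (SE). Among the ligands, Fasl (ENSMUSG00000000817, chr1:161608258-161616064), which encodes the Fas ligand of cytotoxic lymphocytes, gave 11 and 16 reads in saline, and 38 and 16 after ADC/cmLumiOpto. These are 0.688 and 1.08 CPM in saline against 2.15 and 0.780 CPM after treatment. Only ADC/cmLumiOpto replicate 1 lay above the saline samples, and the groups overlapped. The log2 difference was 0.72 ± 0.68 (SE), and omitting ADC/cmLumiOpto replicate 1 turned it to -0.17. The summed CPM of 12 T and NK cell markers was 65.1 and 31.8 in saline and 130 and 56.8 in ADC/cmLumiOpto, so the sample with the most Fasl also had the highest marker sum. Per 1000 CPM of these markers, Fasl stood at 10.6 and 33.9 CPM in saline and at 16.6 and 13.7 CPM after treatment, with overlap. The part of T and NK cell content in the Fasl values was not tested.

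Tnfsf10 (ENSMUSG00000039304, chr3:27371177-27396576), which encodes the ligand TRAIL, was at 30.5 and 27.2 CPM in saline and at 52.7 and 31.8 CPM in ADC/cmLumiOpto. Both treated samples lay above both saline samples, but replicate 2 by a small margin. The log2 difference was 0.55 ± 0.26 (SE), and without ADC/cmLumiOpto replicate 1 it was 0.14. TRAIL is an interferon-induced gene, and the summed CPM of 12 interferon-response genes had the same highest sample, at 1370 in ADC/cmLumiOpto replicate 1 against 672 in replicate 2 and 1106 and 789 in saline. That sum overlapped between groups, and its part in the Tnfsf10 values was not tested.

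Fas (ENSMUSG00000024778, chr19:34268066-34305172), the receptor of the Fas ligand, was at 12.003 and 9.30 CPM in saline and at 27.1 and 29.5 CPM in ADC/cmLumiOpto. The 4 samples formed a low pair and a high pair, with 192 and 138 counts against 478 and 604. Group means were 10.7 ± 1.91 CPM (SD, n = 2) and 28.3 ± 1.67 CPM (SD, n = 2), which is a log2 difference of 1.41 ± 0.23 (SE). It lay at the 94.8th percentile of the log2 fold changes of all tested genes. With each sample left out in turn it was between 1.24 and 1.59, and over the other settings between 1.20 and 1.49. The alveolar and airway markers were also higher in both treated samples, at 9788 ± 2778 summed CPM (SD, n = 2) against 1557 ± 1604 (SD, n = 2). Macrophage and monocyte markers stood at 5931 and 3828 summed CPM against 3114 and 2434, endothelial markers at 576 and 853 against 525 and 416, and neutrophil markers at 1188 and 8138 against 1172 and 541. The largest part of the macrophage and monocyte sum was Lyz2, at 1687 and 1128 CPM in saline and 4299 and 2447 CPM after treatment. Of the 12 genes in that list, 9 had positive log2 fold changes and 3 (Csf1r, Mrc1 and Mertk) negative ones. Of the 8 endothelial genes, 7 had positive log2 fold changes and Kdr a negative one. In ADC/cmLumiOpto replicate 1 the neutrophil genes S100a8, Cxcr2, Retnlg and Mmp8 were below saline replicate 1. All 4 sums were higher in both treated samples than in both saline samples, the neutrophil sum by a narrow margin. Of the other cell type sums, that of B cells was higher, those of fibroblast and mural and of 4T1 and epithelial markers were lower, and that of T and NK cells overlapped. The part of these cell types in the Fas values was not tested.

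**Figure D1:**
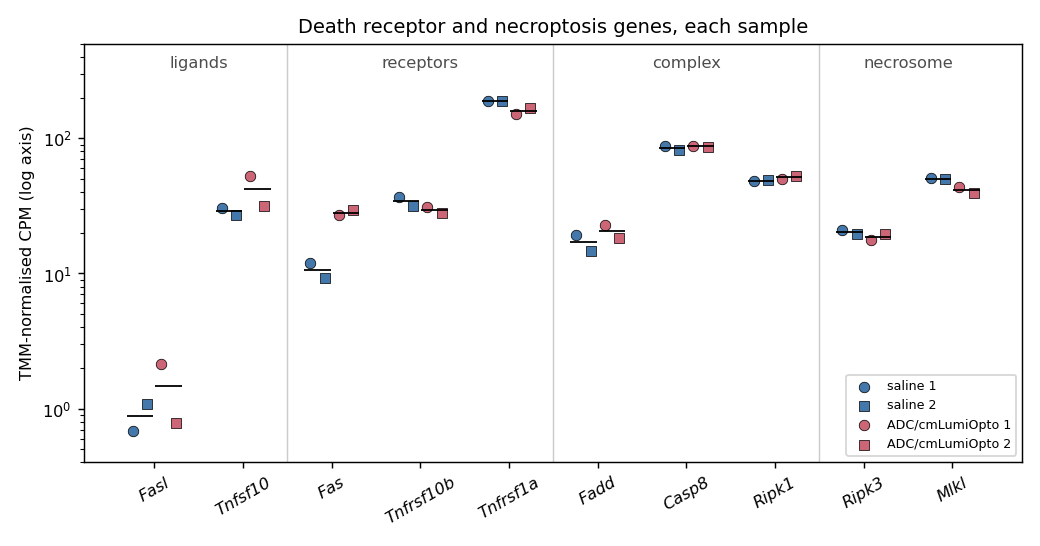
TMM-normalised CPM on a log axis for each of the 10 members in each of the 4 samples, grouped by role, where points are samples and short lines are group means. Fas is at 12.003 and 9.30 CPM in saline and at 27.1 and 29.5 CPM in ADC/cmLumiOpto, while the points of the other members lie close together or overlap.

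The other receptors had differences of the opposite sign. Tnfrsf10b (ENSMUSG00000022074, chr14:70004921-70021860), the mouse TRAIL receptor with a death domain, was at 37.0 and 31.5 CPM in saline and at 31.1 and 27.9 CPM in ADC/cmLumiOpto. The treated samples lay below the saline samples, with a gap between saline replicate 2 and ADC/cmLumiOpto replicate 1 that was smaller than the spread within either group. The log2 difference was -0.22 ± 0.18 (SE), and it was -0.11 without saline replicate 1. Tnfrsf1a (ENSMUSG00000030341, chr6:125326325-125339447), the TNF receptor that can signal both survival and death, was the most abundant member at 188 and 189 CPM in saline and 151 and 168 CPM after treatment. The treated samples were again below the saline samples, with a log2 difference of -0.24 ± 0.16 (SE). Fas relative to Tnfrsf1a, taken per gene length, was 0.0804 and 0.0617 in saline and 0.226 and 0.220 in ADC/cmLumiOpto, and relative to Tnfrsf10b it was 0.857 and 0.781 against 2.31 and 2.79. These ratios need no scaling between libraries, and for each the treated samples lay above the saline samples.

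Inside the cell, the adaptor gene Fadd (ENSMUSG00000031077, chr7:144131055-144136200) was at 19.3 and 14.7 CPM in saline and at 22.7 and 18.2 CPM in ADC/cmLumiOpto. The groups overlapped, and the log2 difference was 0.27 ± 0.25 (SE). It was 0.47 and 0.087 without saline replicates 1 and 2, and 0.10 and 0.41 without ADC/cmLumiOpto replicates 1 and 2. Casp8 (ENSMUSG00000026029, chr1:58834533-58886662), the initiator caspase of the death receptors, was at 88.6 and 82.6 CPM in saline and at 88.5 and 86.1 CPM after treatment. Its treated values lay within the saline range, with a log2 difference of 0.029 ± 0.16 (SE) that was -0.076 with the gene length trend removed and -0.018 without saline replicate 2. Ripk1 (ENSMUSG00000021408, chr13:34186346-34221130), the kinase that serves as a scaffold for survival signaling and as a trigger of death, was at 48.7 and 48.9 CPM in saline and at 50.4 and 53.0 CPM after treatment. Both treated samples were higher by a small amount, a log2 difference of 0.084 ± 0.15 (SE) that was 0.29 with the gene length trend removed. The Ripk1 gene overlaps Serpinb6a on the opposite strand, which had 4057 to 6814 counts per sample, and because the labels leave the strandedness of the libraries undecided, reads from the shared part cannot be told apart.

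In CPM Ripk3 and Mlkl, which act together downstream of RIPK1, were lower in both treated samples, Ripk3 by a small margin, whereas Ripk1 was slightly higher. Ripk3 (ENSMUSG00000022221, chr14:56022452-56026322), the kinase that phosphorylates MLKL, was at 20.9 and 19.7 CPM in saline and at 17.6 and 19.5 CPM in ADC/cmLumiOpto. ADC/cmLumiOpto replicate 2 was next to saline replicate 2, and the log2 difference of -0.13 ± 0.20 (SE) was smaller than its standard error. It was -0.057 and -0.21 without ADC/cmLumiOpto replicates 1 and 2, and -0.31 with the gene length trend removed. Mlkl (ENSMUSG00000012519, chr8:112038429-112064809), which encodes the membrane-permeabilizing protein of necroptosis, was at 50.9 and 50.01 CPM in saline and at 43.7 and 39.4 CPM after treatment. Here the gap between the groups was wider than the spread in either, with a log2 difference of -0.28 ± 0.16 (SE), and from -0.46 to -0.19 in the other settings with all samples. RNA levels do not show phosphorylation of MLKL or cleavage of caspase-8, the steps by which these proteins act.

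**Figure D2:**
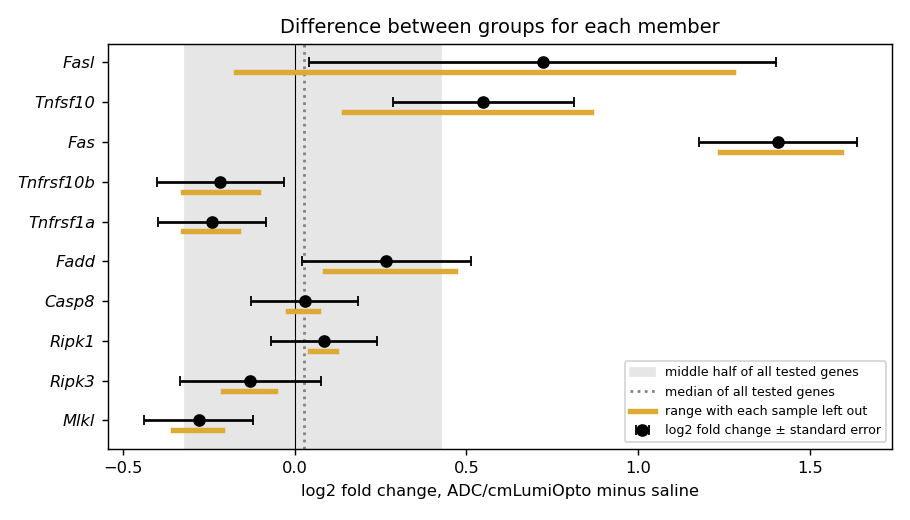
Log2 fold change of each member, ADC/cmLumiOpto minus saline, with bars of 1 standard error, the range with each sample left out in turn, and the middle 50% and the median of all 15320 tested genes. Fas lies at 1.41, outside the shaded band from -0.32 to 0.43, and Fasl has the widest range, from -0.17 to 1.28.

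Levels of different genes were compared as counts per kb of gene length, scaled to the same total in each sample, as TPM values are. In saline the order was Tnfrsf1a at 223 ± 2.38 (SD, n = 2), Casp8 at 90.6 ± 4.10, Mlkl at 67.1 ± 0.525 and Ripk3 at 27.1 ± 1.07 on this scale. These 4 neighbors in the order were separated by more than their spread. Tnfrsf10b at 19.2 ± 2.11, Ripk1 at 17.9 ± 0.123, Tnfsf10 at 16.8 ± 1.30, Fas at 15.8 ± 2.77 and Fadd at 13.3 ± 2.51 followed, and neighbors among these 5 did not differ by more than their SDs added together. Fasl was last at 1.40 ± 0.443. After ADC/cmLumiOpto Fas stood at rank 4 in place of 8, at 36.7 ± 5.02 (SD, n = 2), while the first 3 places and the last 2 held the same genes as in saline.

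As a share of the summed length-scaled level of the 10 members, Fas was 3.55% and 2.86% in saline and 8.35% and 9.09% in ADC/cmLumiOpto. Tnfrsf1a was 44.2% and 46.4% in saline and 37.0% and 41.3% after treatment, and Mlkl 13.5% and 13.8% against 12.1% and 10.9%. Casp8 held a share of 18.7% and 18.1% in saline and 19.4% and 19.0% after treatment. The shares did not overlap between groups for these genes, nor for Ripk1, Ripk3, Tnfrsf10b and Tnfsf10, and they overlapped for Fadd and Fasl. Of all tested genes, 28.1% were higher and 28.8% lower without overlap in CPM. Margins were small for Ripk3 (5.45% in saline replicate 2, 5.42% in ADC/cmLumiOpto replicate 2). They were also small for Tnfrsf10b (3.67% in saline replicate 2, 3.62% in ADC/cmLumiOpto replicate 1). Shares of the same sum depend on each other, so these are not separate results. On this scale the median of all tested genes was -0.17 (log2), against 0.028 in the TMM scaling, and each member moved down with it. Casp8 then lay below saline in both treated samples, Ripk1 (17.9 in saline, 16.6 after treatment) was lower in group mean in place of higher, Ripk1 and Tnfsf10 overlapped between groups, and Fas was higher in both treated samples as before.

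**Figure D3:**
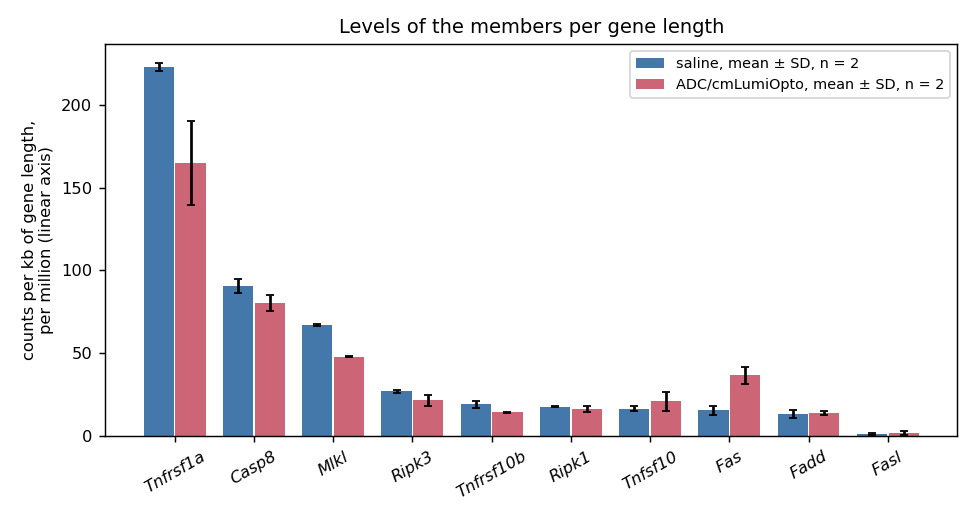
Counts per kb of gene length, scaled to the same total in each sample, on a linear axis for the 10 members in order of their saline level, with bars for group means and error bars of 1 SD (n = 2). Tnfrsf1a is highest in both groups, and Fas goes from 15.8 in saline to 36.7 in ADC/cmLumiOpto.

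The balance between partners was read from the same length-scaled levels. Caspase-8 is held back by its inactive relative cFLIP, encoded by Cflar, and the Casp8 to Cflar ratio was 3.53 and 3.39 in saline and 4.02 and 3.18 after treatment, with overlap. The Casp8 to Fadd ratio overlapped as well, at 6.19 and 7.58 against 5.25 and 6.37. Ripk3 relative to Ripk1 was 1.57 and 1.47 in saline and 1.27 and 1.34 in ADC/cmLumiOpto, and Mlkl relative to Casp8 was 0.722 and 0.761 against 0.620 and 0.575. For these last 2 ratios the treated samples lay below the saline samples. The TRAIL receptor relative to its ligand, Tnfrsf10b to Tnfsf10, was 1.17 and 1.12 in saline and 0.570 and 0.848 after treatment. Casp8 relative to Ripk3 was 3.35 and 3.32 in saline and 3.98 and 3.50 after treatment. The Fas to Fasl ratio overlapped between groups, at 16.4 and 8.10 in saline and 11.8 and 35.5 after treatment. So did Mlkl relative to Ripk3, at 2.42 and 2.53 against 2.47 and 2.01.

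The rest of the pathway was examined as 5 lists of 104 genes. edgeR's quasi-likelihood test called 0 of the 97 tested genes, so the values of these genes are given without a call from it. At an unadjusted p under 0.05 there were 13 of them (13.4%), 7 higher and 6 lower, against 23.2% of all tested genes. The exact test of edgeR and DESeq2 each called 3 (3.09%), against 7.64% and 8.83% of all tested genes. These 3 were Ltb and Tnfsf14 (higher) and Tab3 (lower). Beside the counts of higher and lower genes given below for each list, 7961 of all 15320 tested genes were higher and 7359 lower.

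The TNF superfamily ligands were mostly higher after treatment, at 9 of 13 tested genes, with a median log2 fold change of 0.86. The median was 0.38 without saline replicate 2 and 1.54 without saline replicate 1. Ltb (ENSMUSG00000024399), which encodes lymphotoxin beta of lymphocytes, was at 11.5 and 2.56 CPM in saline and at 26.7 and 37.8 CPM in ADC/cmLumiOpto. Its log2 difference of 2.19 ± 0.62 (SE) had adjusted p values of 0.131 by edgeR's quasi-likelihood method, 0.0196 by its exact test and 0.00298 by DESeq2. Without saline replicate 1 the difference was 3.64, with an adjusted p of 0.00760 by the quasi-likelihood method, and over the settings and omissions tried that p ranged up to 0.243 (without saline replicate 2, where the difference was 1.49). Tnfsf14 (ENSMUSG00000005824), which encodes the ligand LIGHT, was at 4.31 and 3.24 CPM in saline and 6.46 and 16.6 CPM after treatment, with adjusted p values of 0.143, 0.0498 and 0.0311 in the same tests. Its log2 difference of 1.61 was 0.77 without ADC/cmLumiOpto replicate 2. Tnf (ENSMUSG00000024401), the ligand of the Tnfrsf1a product, had 22 and 2 counts in saline and 38 and 71 after it, for a log2 difference of 1.87 ± 0.87 (SE) with 0.250 as the adjusted p in edgeR's quasi-likelihood method. It was 4.30 without saline replicate 1 and 1.03 without saline replicate 2. Tnfsf11 and Tnfsf9, the lower genes with the smallest p in the list, had log2 fold changes of -0.79 and -0.52, the latter -0.21 without saline replicate 1. The sum of macrophage and monocyte markers, of which Lyz2 was the largest part, was also higher in both treated samples. So was the sum of 5 B cell markers (4.94 and 2.09 CPM in saline against 7.08 and 6.88). That of neutrophil markers was higher too, but ADC/cmLumiOpto replicate 1, at 1188 CPM, was close to saline replicate 1, at 1172 CPM. The sum of T and NK cell markers overlapped. The part of these cell types in the values of the ligands was not tested.

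Of the other TNF receptors, 13 of 21 tested genes were higher and 8 lower, with a median log2 fold change of 0.15 (0.27 without saline replicate 1, 0.044 without saline replicate 2 and 0.084 without ADC/cmLumiOpto replicate 1). Tnfrsf18, which encodes GITR, a TNF family receptor carried by T cells, was at 1.25 and 1.01 CPM in saline and at 3.40 and 2.05 CPM in ADC/cmLumiOpto. Relt had a log2 difference of 1.15 ± 0.43 (SE), which was 0.38 without ADC/cmLumiOpto replicate 2. Lower genes were Tnfrsf19, with a log2 fold change of -0.66, and Tnfrsf23 (ENSMUSG00000037613), a decoy receptor that binds TRAIL without a death domain, at 26.01 and 30.9 CPM in saline and 15.1 and 18.9 CPM after treatment. Its log2 difference was -0.74 ± 0.22 (SE), with 0.139 as the adjusted p by edgeR's quasi-likelihood method. Another decoy gene, Tnfrsf22, named after its values were seen, was at 36.9 and 41.1 CPM in saline and 25.3 and 27.4 CPM after treatment. Tnfrsf22 and Tnfrsf23 are close paralogs, and how reads were divided between them is not known. Tnfrsf22 and Tnfrsf23 were lower in the same samples as Tnfrsf10b, the receptor for the same ligand that can signal death.

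Among the adaptors and brakes of the receptor complexes, 16 of 26 tested genes were lower, with a median log2 fold change of -0.054. Its sign was not stable: the median was 0.058 with the gene length trend removed, 0.029 with upper-quartile factors, 0.049 without ADC/cmLumiOpto replicate 1 and -0.17 without ADC/cmLumiOpto replicate 2. Tab3 (ENSMUSG00000035476), an adaptor of the kinase TAK1, was at 38.6 and 47.5 CPM in saline and at 20.4 and 24.8 CPM in ADC/cmLumiOpto, with adjusted p values of 0.116 in edgeR's quasi-likelihood test, 0.0126 in the exact test and 0.0108 in DESeq2. The TAK1 gene itself, Map3k7, had a log2 difference of -0.37 ± 0.17 (SE). Traf2 and Traf5, signaling adaptors that bind TNF receptors, were higher, with log2 fold changes of 0.41 and 0.80. The direct brakes on cell death had no shared direction. Cflar was at 110 and 107 CPM in saline and 96.3 and 118 CPM after treatment, Birc2 and Birc3, which encode the ubiquitin ligases cIAP1 and cIAP2, had log2 fold changes of 0.16 and 0.33 with overlap between groups, and Tnfaip3, which encodes the deubiquitinase A20, one of -0.37 (-0.13 and -0.66 without ADC/cmLumiOpto replicates 1 and 2).

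Among triggers and regulators of necroptosis, 16 of 23 tested genes were lower, with a median log2 fold change of -0.080 (Mertk is also among the macrophage markers). That median was 0.0052 with upper-quartile factors, -0.20 without ADC/cmLumiOpto replicate 1 and 0.017 without ADC/cmLumiOpto replicate 2. Zbp1, a nucleic acid sensor that engages RIPK3, was at 52.0 and 29.1 CPM in saline and at 75.7 and 30.2 CPM in ADC/cmLumiOpto. In both groups replicate 1 was high and replicate 2 low, and the log2 difference of 0.38 ± 0.46 (SE) was -0.42 without ADC/cmLumiOpto replicate 1. The interferon-response genes followed the same order within each group, as given above for Tnfsf10. Chmp2a, part of the ESCRT machinery that repairs membranes, had a log2 fold change of 0.53 that was 0.21 with the gene length trend removed, whereas Pdcd6ip, which encodes the ESCRT partner ALIX, had one of -0.54 and Eif2ak2, the double-stranded RNA sensor PKR, one of -0.53. These 3 genes had adjusted p values of 0.143 to 0.156 in edgeR's quasi-likelihood test.

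Of the 14 apoptosis executors, 9 were lower and 5 higher, with a median log2 fold change of -0.089 that was 0.056 with the gene length trend removed. Bid, which links caspase-8 to the mitochondrial pathway, was at 40.1 and 34.4 CPM in saline and at 33.7 and 35.3 CPM in ADC/cmLumiOpto, with overlap. Cytochrome c (Cycs) and Htra2, which are released from mitochondria in apoptosis, had log2 fold changes of 0.49 (0.13 without ADC/cmLumiOpto replicate 1 and 0.77 without ADC/cmLumiOpto replicate 2) and 0.31, and Lmnb1 and Parp1, substrates of the executioner caspases, had -0.32 and -0.28. None of these 4 was called by any of the 3 tests.

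**Figure D4:**
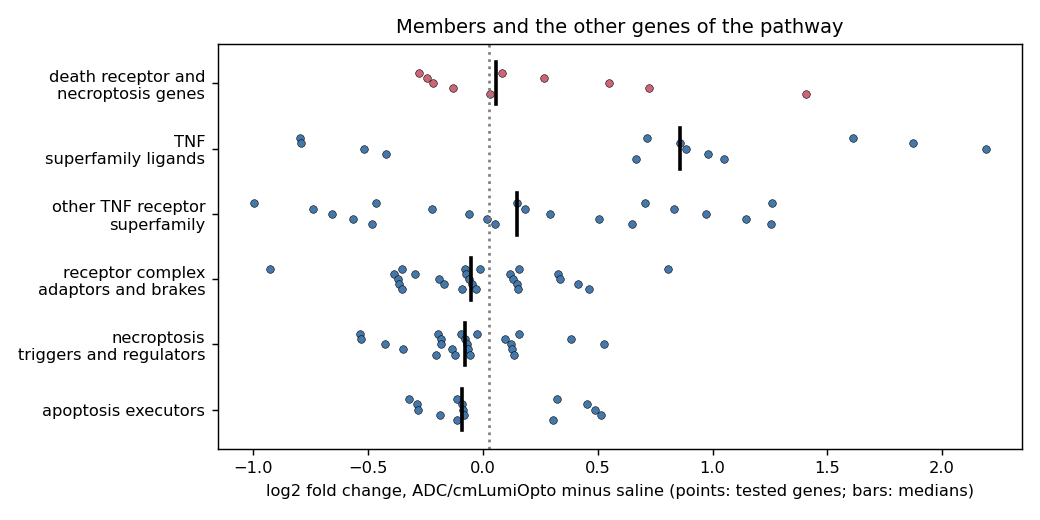
Log2 fold changes, ADC/cmLumiOpto minus saline, of the tested genes among the 10 members and in the 5 pathway lists, with a bar at each median and a dotted line at the median of all tested genes. The ligand list has a median of 0.86, the other 4 lists lie between -0.089 and 0.15, and Fas at 1.41 is at the far right of the members.

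**Figure D5:**
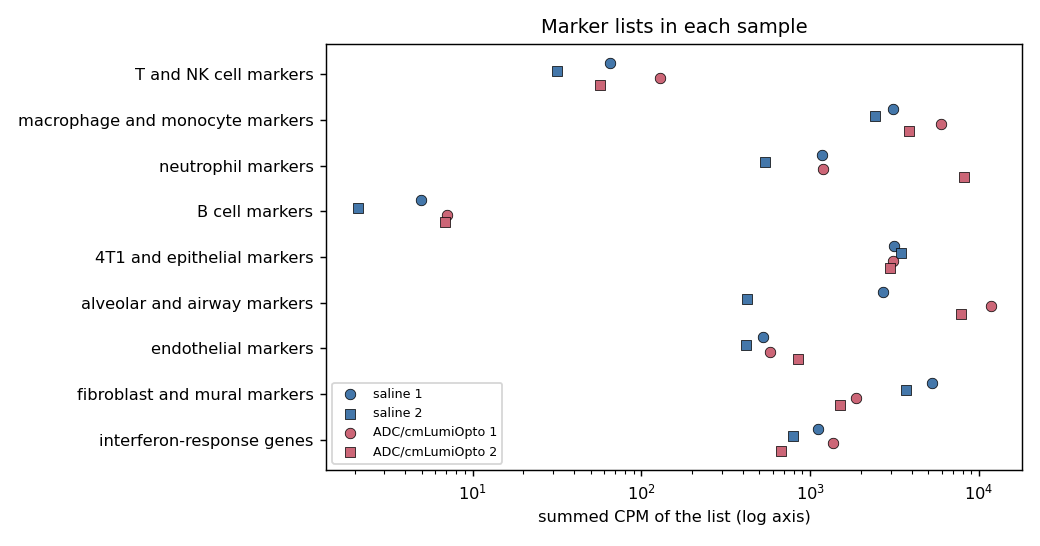
Summed CPM on a log axis of 8 cell type marker lists and the interferon-response list in each of the 4 samples. Alveolar and airway markers range from 423 in saline replicate 2 to 11752 in ADC/cmLumiOpto replicate 1, T and NK cell markers and interferon-response genes overlap between groups, and fibroblast and mural markers are lower in both treated samples.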

How the data were processed

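Bulk RNA sequencing of 2 saline and 2 ADC/cmLumiOpto samples was used, grouped by their titles. The table the authors deposited holds whole-number counts for 56748 genes, not normalized. The study's methods name HISAT2 and GRCm38, whereas the submitters' processing notes name HISAT2, HISAT, TopHat2 and mm39, and the counting program is not given in the sources used here. Of 52073 gene identifiers shared with a GRCm38 annotation, 1435 had the same position and 50383 the same span length, so gene positions are printed as deposited and the promoters in GRCm38.p6. The libraries were made from poly-A RNA, and the labels allow a stranded or an unstranded library.

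Counts were analysed in R 4.3.3 with edgeR 4.0.16: filterByExpr (minimum count 10, minimum total 15), TMM, estimateDisp, glmQLFit and glmQLFTest, with Benjamini-Hochberg adjustment over 15320 genes and a threshold of 0.05. Standard errors are the log2 fold change divided by the square root of F. Length-scaled levels used the gene length that the authors deposited. DESeq2 1.42.0, the edgeR exact test and the settings in the closing section were alternatives, and the code was checked on simulated data. The smallest two-sided p of an exact permutation test is 0.333 with 2 samples in each group. Replicates were not duplicates: they differed by 26.1 (saline) and 55.6 (ADC/cmLumiOpto) times sampling noise (chi-square per gene).

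The members and lists were chosen with earlier results of these data known. The genes named are the 10 members, direct partners (Tnf, Cflar, Tnfaip3, Birc2, Birc3, Zbp1 and Bid, while 1 other is not reported here) and, from each pathway list, the 2 higher and the 2 lower tested genes with the smallest unadjusted p.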

Additional observations from a re-analysis of the deposited data

How the results depend on the processing

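Counts of called genes depended on the test and filter. Against 0 in the quasi-likelihood test, DESeq2 gave 1353, the exact test 1170, and no filter on low counts 2259 of 25563 genes. With the replicate number as a block (replicate block) 607 genes were called, Fas among them. Ltb and Tab3 had adjusted p values of 0.0429 and 0.0399 in that fit. The numbers are not known to pair the samples, and deviations of same-numbered samples had a correlation of 0.099 over genes. With each sample left out in turn there were 0 to 218, where a lone sample is assumed to vary like the others: 218 without saline replicate 1, 10 without saline replicate 2, 5 without ADC/cmLumiOpto replicate 1 and 0 without ADC/cmLumiOpto replicate 2. The other 6 settings gave 0. DESeq2 left 1783 genes without an adjusted p. The median log2 fold change of the members was 0.051 to 0.14 over the settings with all samples and -0.023 to 0.068 with a sample left out. Of the members, Casp8 and Fasl changed sign over these settings, as given above, and Ripk1 was lower in group mean on the length-scaled level. Among the partners, Cflar, at -0.012, was 0.038 without TMM, 0.071 with upper-quartile factors, 0.026 with at least 10 counts in every sample, 0.015 for protein-coding genes, 0.29 with the gene length trend removed and 0.13 without ADC/cmLumiOpto replicate 1. With each sample left out, Cflar ranged from -0.17 to 0.13, Birc2 from -0.018 (without saline replicate 2) to 0.35, Birc3 from -0.030 (without ADC/cmLumiOpto replicate 2) to 0.61 and Zbp1 from -0.42 (without ADC/cmLumiOpto replicate 1) to 0.90. The cause of these changes was not tested. Counts were low for Fasl (11 to 38), Tnfsf11 (21 to 34), Tnf (2 to 71) and Tnfrsf18 (15 to 60), which limits the precision of their values.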

Other observations

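The summed CPM of the 10 members overlapped between the groups, at 496 and 474 in saline and 487 and 474 in ADC/cmLumiOpto. The summed length-scaled level did not overlap, at 500 and 484 in saline and 397 and 442 in ADC/cmLumiOpto. On that scale the median of all tested genes was -0.17 (log2). Without Fas, left out after its value was seen, the summed CPM was 484 and 465 in saline and 460 and 445 in ADC/cmLumiOpto. Both treated samples were below both saline samples in that sum. Its largest part was Tnfrsf1a, at 188 and 189 CPM in saline and 151 and 168 CPM after treatment. Tnfsf10 and Ripk1 were higher in both treated samples, so the lower sum does not describe each remaining member. Of all tested genes, 28.8% had both treated samples below both saline samples in CPM.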
